A study of Mus musculus with 3 samples.

Results

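The mRNA levels of 10 histone lysine demethylase genes were followed in brown adipocytes through 2 h of β-adrenergic stimulation. The genes were Kdm3a, which encodes JMJD1A, its relatives Kdm3b and Jmjd1c, and Kdm1a, Kdm4c, Kdm5b, Kdm5c, Kdm6a, Kdm6b and Kdm7a. They were represented by 34 of the 45101 probe sets of the array, chosen because the annotation of the probe set carried exactly one of these symbols. Of these, 13 probe sets reached a signal of 100 on 1 or more arrays and are called kept here, so that 9 of the 10 genes could be read, among 6896 genes read in all. Kdm5c had 9 probe sets and none was kept.

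The cells were immortalized brown adipocytes of mouse (iBATs), derived from stromal vascular cells of the interscapular brown fat of newborn C57BL/6 mice by SV40 large T antigen and differentiated with insulin and indomethacin. On day 8 of differentiation they were stimulated with isoproterenol (ISO), an agonist of all β-adrenergic receptors, for 0, 1 or 2 h, and the same differentiation was shared by all 3 groups. Each time point was 1 array (the sources name no second culture), so no difference has a replicate check, no p-value is given, and time and array cannot be told apart. Genes were called where they changed by at least 1.74-fold in either direction, a log2 ratio of 0.8, which is a size and not a test. Since each array holds RNA from a whole culture, fewer cells of a type and less RNA per cell cannot be told apart.

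Adipocyte markers were bright, with 7 of 7 genes read, and summed to 17600.3, 18665.9 and 17074.5 on the 0, 1 and 2 h arrays. Brown adipocyte markers had 8 of 10 genes read, although Dio2 stayed at or below 9.8 and Elovl3 at or below 41.6, and they summed to 6644.6, 8844.2 and 9841.5 on these arrays. Of these 8, 3 were called higher at 2 h. They were Ucp1, the uncoupling protein of brown fat, with 1485.7 at 0 h, 3673.2 at 1 h and 4166.1 at 2 h, Ppargc1a, a transcriptional coactivator, with 293.4, 487.6 and 1029.9, and the transcription factor gene Zic1, with 173.2, 276.3 and 318.8. Cidea also had a ratio above 0 at 2 h, whereas Cox7a1 (log2 ratio -0.18), Ebf2 (-0.36), Cox8b (-0.44) and Prdm16 (-0.63) had ratios below 0. Prdm16 was dim, and its ratio was -0.10 with signals below 100 set to 100. The sum of the brown adipocyte markers thus follows mainly Ucp1 and Ppargc1a. Preadipocyte and fibroblast markers were read for 8 of 9 genes and summed to 10893.8, 10961.5 and 9927.8 at 0, 1 and 2 h, with 0 called at any time. None of 8 endothelial, 9 macrophage and leukocyte and 8 muscle markers was read, their highest signals being 12.3 for Cldn5, 93.2 for Cd14 and 77.9 for Des. The ratio of 3' to 5' probe sets of Actb lay between 1.60 and 1.61 on the 3 arrays, and that of Gapdh between 0.827 and 0.838.

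Histone lysine demethylases remove methyl groups from histone tails and belong to separate chemical classes. The JmjC enzymes, to which all of these genes except Kdm1a belong, are dioxygenases that use iron, molecular oxygen and 2-oxoglutarate, whereas the product of Kdm1a, LSD1, is a flavin-dependent amine oxidase. In brown adipocytes, catecholamines act through β-adrenergic receptors, cyclic AMP and protein kinase A to raise thermogenic genes, and JMJD1A, which removes mono- and dimethyl marks from H3K9, is known as a cofactor of this response.

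Kdm3a was the only one of the 9 genes read that passed the threshold. Its single probe set gave 421.6 at 0 h, 528.7 at 1 h and 788.3 at 2 h. Its signal was thus lowest without ISO and highest on the last array. Against 0 h this was 1.25-fold at 1 h (log2 ratio 0.33) and 1.87-fold at 2 h (0.90), and the 2 h array over the 1 h array was 1.49-fold (0.58). Most of the increase on the log2 scale therefore lay in the second hour. Counted from the highest ratio, Kdm3a was number 364 of the 6896 genes read at 1 h (5.28% from the top), 154 at 2 h over 0 h (2.23%) and 121 at 2 h over 1 h (1.75%). The robust spread of the ratio among genes of like signal, which holds real change as well as noise, was 0.13 at 1 h, 0.21 at 2 h and 0.16 between 2 h and 1 h. The summed brown adipocyte markers were also higher on the ISO arrays, mainly through Ucp1 and Ppargc1a and with 4 of 8 genes above 0 at 2 h, and their part in the result was not tested. Kdm3a stayed under a 2-fold change.

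RefSeq gives Kdm3a 3 transcription starts on the minus strand of chromosome 6 (build GRCm38.p6), and the 250 bases upstream of the start that lies farthest upstream are shown because Kdm3a is the gene that was called. The same stretch is shown for Kdm7a, the other gene with a RefSeq promoter here whose kept probe sets all had ratios above 0.1 at both times and above 0.4 at 2 h. Both windows run 5' to 3' on the minus strand, chr6:71632918-71633167 for Kdm3a and chr6:39206774-39207023 for Kdm7a. Capitals mark CCAAT boxes (CCAAT) and the core of the hypoxia response element (ACGTG or GCGTG), sought on both strands.
Kdm3a: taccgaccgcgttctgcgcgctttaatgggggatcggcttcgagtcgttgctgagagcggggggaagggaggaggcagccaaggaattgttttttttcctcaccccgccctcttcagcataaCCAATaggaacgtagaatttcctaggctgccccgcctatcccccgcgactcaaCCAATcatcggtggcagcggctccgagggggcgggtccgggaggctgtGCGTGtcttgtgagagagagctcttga
Kdm7a: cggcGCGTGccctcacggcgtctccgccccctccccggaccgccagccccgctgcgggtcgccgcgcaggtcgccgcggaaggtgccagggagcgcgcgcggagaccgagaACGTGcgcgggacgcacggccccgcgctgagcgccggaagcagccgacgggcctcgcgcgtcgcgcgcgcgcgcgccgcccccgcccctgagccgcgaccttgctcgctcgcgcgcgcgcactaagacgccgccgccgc
The Kdm3a window holds CCAAT 128 and 75 bases upstream of the start and GCGTG 27 bases upstream. The Kdm7a window holds GCGTG 246 bases and ACGTG 139 bases upstream. No capitals stand for a cyclic AMP response element in either, since neither window holds TGACGTCA or its core TGACG.

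The paralogues of Kdm3a did not pass the threshold. Kdm3b, whose product also acts on mono- and dimethyl H3K9, gave 205.0 at 0 h, 175.3 at 1 h and 188.9 at 2 h. Its log2 ratio to 0 h was -0.23 at 1 h, where the spread was 0.17, and -0.12 at 2 h. Its second probe set lay between 16.2 and 30.1. Jmjd1c encodes the third relative, whose own demethylase activity is debated. It had 568.4 at 0 h, 612.8 at 1 h and 631.9 at 2 h in the probe set that was kept, with log2 ratios of 0.11 and 0.15. The other probe sets of Jmjd1c lay between 19.3 and 40.6. At 2 h over 0 h the 3 genes therefore had ratios of 0.90 for Kdm3a, 0.15 for Jmjd1c and -0.12 for Kdm3b, and the ratios of Jmjd1c and Kdm3b were smaller than the spread among genes of like signal, 0.19 and 0.25. Kdm4c encodes a demethylase of trimethyl H3K9 and H3K36. Its probe set was just inside the limit for reading, through the 2 h array alone, with 94.0, 86.7 and 105.4 at 0, 1 and 2 h. Its ratios of -0.12 at 1 h and 0.17 at 2 h lay within the spread of 0.37 and 0.43 at that signal.

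**Figure D1:**
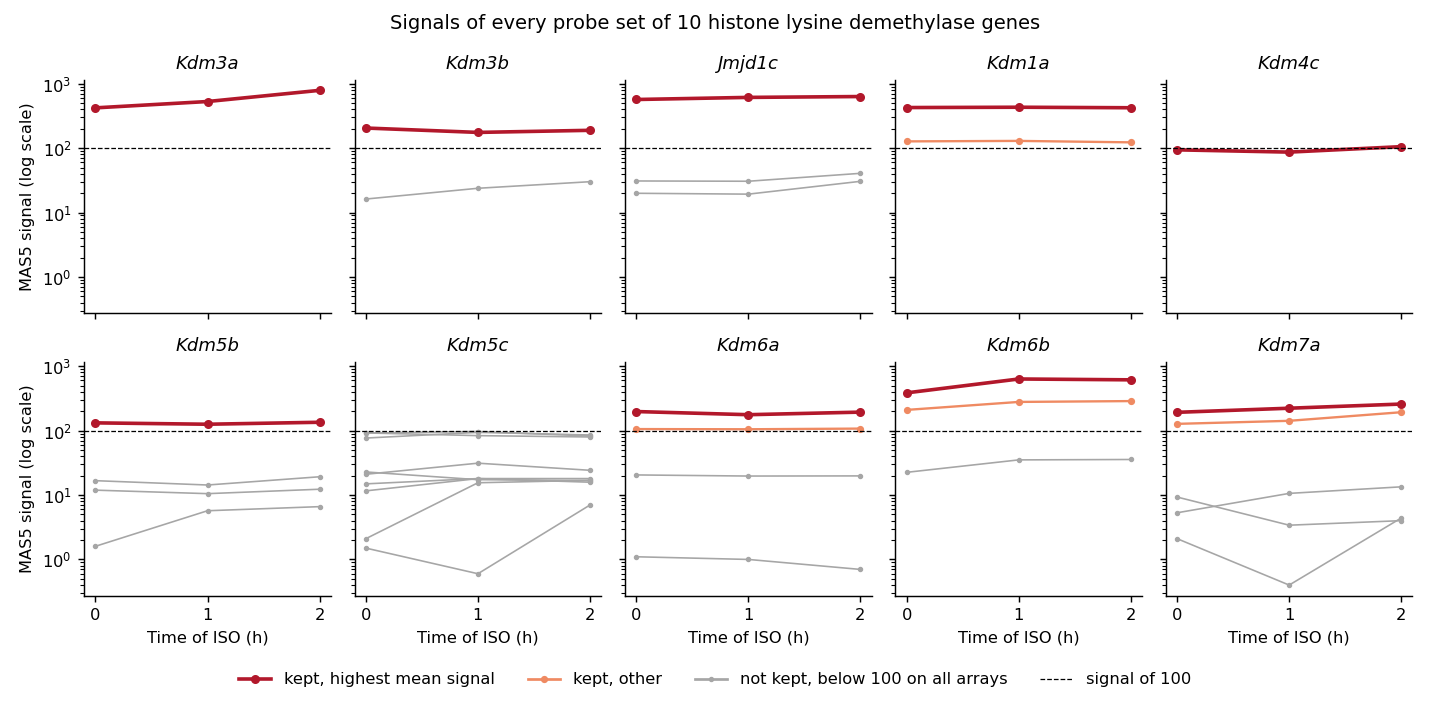
MAS5 signal (log scale) of each of the 34 probe sets against time of ISO in hours, 1 panel per gene and 1 array per time; red lines are the brightest kept probe set by mean signal, orange lines other kept probe sets and grey lines probe sets below 100 on all arrays. Kdm3a climbs through 528.7 at 1 h to 788.3 at 2 h, Kdm6b stands at 632.6 at 1 h and 613.6 at 2 h, and all 9 probe sets of Kdm5c lie under the dashed line at 100.

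Kdm6b had the second largest ratio at 2 h and the largest at 1 h of the genes read here, below the threshold at both. It encodes JMJD3, which removes di- and trimethyl marks from H3K27. Its brightest probe set had 385.3 at 0 h, 632.6 at 1 h and 613.6 at 2 h, which was 1.64-fold over 0 h at 1 h (log2 ratio 0.72) and 1.59-fold at 2 h (0.67). The signal was higher on both ISO arrays than at 0 h, and the 2 h array over the 1 h array had a log2 ratio of -0.04. With the arrays scaled to the same median instead, the ratio at 1 h was 0.81, just past the threshold. A second kept probe set had 209.5 at 0 h, 278.6 at 1 h and 287.1 at 2 h, or 1.33-fold and 1.37-fold over 0 h. The third, at 22.5, 35.1 and 35.6 on the 0, 1 and 2 h arrays, was too dim to be kept. The 2 kept probe sets were thus lowest at 0 h. Kdm6b was number 125 from the top at 1 h (1.81%) and 229 at 2 h (3.32%), so at 1 h it stood above Kdm3a and at 2 h below it. The kept probe sets of Kdm6b carry no accession in the annotation, and the second is of a kind that can match other transcripts, so their link to Kdm6b rests on the annotated gene alone.

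Kdm6a is the X-linked gene for UTX, which acts on the same H3K27 marks as JMJD3. Its kept probe sets had 197.5 and 105.6 at 0 h, 176.5 and 104.9 at 1 h, and 193.5 and 107.4 at 2 h. Neither moved from 0 h by more than the spread among genes of like signal, with log2 ratios of -0.16 and -0.01 at 1 h and -0.03 and 0.02 at 2 h. The other probe sets of Kdm6a lay between 0.7 and 20.5. Kdm7a encodes a demethylase of mono- and dimethyl H3K9 and H3K27. Its brightest probe set gave 192.1 at 0 h, 222.5 at 1 h and 258.2 at 2 h, with log2 ratios to 0 h of 0.21 and 0.43. The spread at that signal was 0.16 at 1 h and 0.22 at 2 h. The second kept probe set had 127.2 at 0 h, 141.8 at 1 h and 192.8 at 2 h, with ratios of 0.16 and 0.60. In both the 0 h array was the lowest and the 2 h array the highest, with ratios under the threshold. The 3 remaining probe sets of Kdm7a lay between 0.4 and 13.4.

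Kdm1a and Kdm5b, the genes for H3K4 demethylases that could be read among the 10, had ratios close to 0. Kdm1a, which encodes LSD1, the amine oxidase that acts on mono- and dimethyl H3K4, had 426.2 at 0 h, 431.2 at 1 h and 423.2 at 2 h. Its other kept probe set had 127.2, 129.4 and 122.9 at 0, 1 and 2 h, so the ratios to 0 h of both probe sets lay between -0.05 and 0.02 on the log2 scale. The brighter of them is of a kind that can match several transcripts. Kdm5b encodes a demethylase of di- and trimethyl H3K4. It had 131.8 at 0 h, 125.5 at 1 h and 134.7 at 2 h in the probe set that was kept, with ratios of -0.07 and 0.03, while its other 3 probe sets stayed between 1.6 and 19.2. Kdm5c is its X-linked relative. The brightest of its 9 probe sets had 92.0 at 0 h, 96.8 at 1 h and 82.5 at 2 h, just outside the limit for reading. Across all 9 the signals lay between 0.6 and 96.8, and no ratio of Kdm5c is given here. Among the alternatives below, Kdm5c entered the group only with no filter or with the arrays scaled to the same median.

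Over the 9 genes read, 0 were called higher and 0 lower at 1 h over 0 h, where 1.58% of all genes read were called higher and 0.218% lower. At 2 h over 0 h 1 was called higher, Kdm3a, and 0 lower, against 2.73% and 0.812% of all genes. At 2 h over 1 h 0 were called in either direction, against 0.667% higher and 0.319% lower. With 9 genes, 1 call is no result about the group. The median log2 ratio of the 9 genes was 0.02 at 1 h and 0.15 at 2 h, beside -0.02 and -0.07 over all genes read. Without Kdm3a the median of the other 8 was -0.03 at 1 h and 0.09 at 2 h. The genes were chosen with earlier results of these data known, so the medians are no result about the group either. A ratio above 0 at 2 h was found in 6 of 9, beside 38.5% of all genes read, and these were Kdm3a, Kdm6b, Kdm7a, Kdm4c, Jmjd1c and Kdm5b. Kdm4c was read only because its 2 h signal reached 100, so its ratio above 0 there was fixed by the filter. With a signal of 100 required on all 3 arrays, the median at 2 h was 0.09. The ratios of Kdm4c, Jmjd1c and Kdm5b were smaller than the spread among genes of like signal, and nothing is read from the count.

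**Figure D2:**
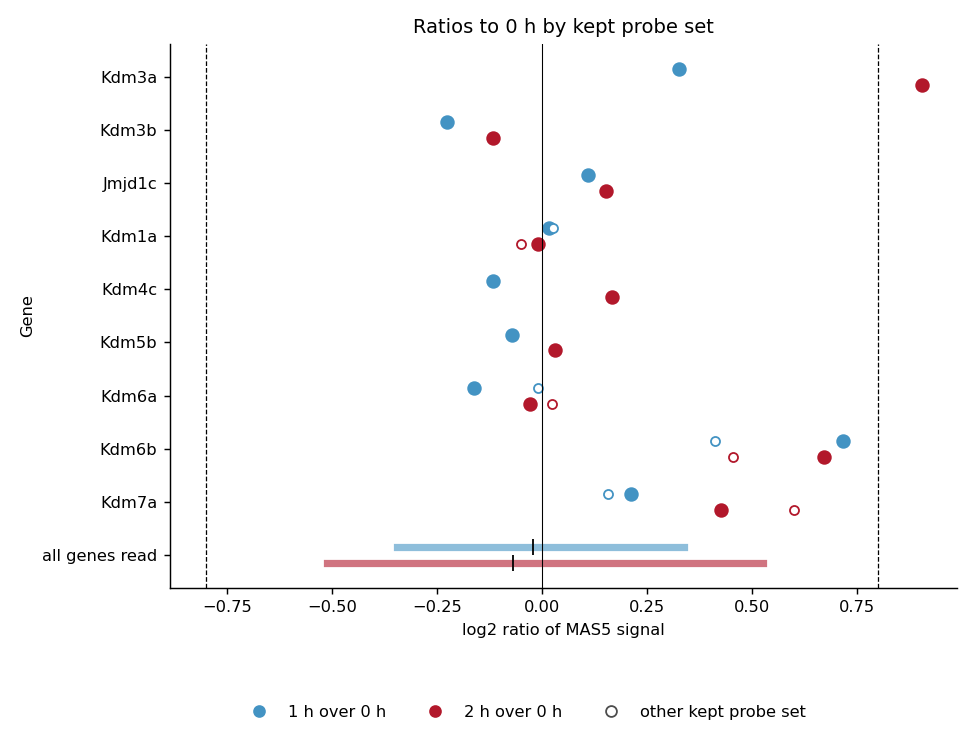
Log2 ratio of MAS5 signal to 0 h (horizontal axis) of each gene read, blue for 1 h over 0 h and red for 2 h over 0 h, filled for the brightest kept probe set by mean signal and open for other kept probe sets; dashed lines mark the threshold of 0.8 in either direction. The bars in the bottom row run between the 5th and 95th percentiles of all genes read, with the median as a tick, and Kdm3a at 2 h (0.90) is the only point past a dashed line.

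The genes whose ratios at both times were closest to those of Kdm3a were sought among 6165 genes whose signal reached 100 on each of the 3 arrays, by the straight distance between the pairs of log2 ratios. The nearest was Rlf, which encodes a zinc finger protein, with 115.4, 146.2 and 208.9 at 0, 1 and 2 h and a distance of 0.049. Dcaf10, for a substrate receptor of a cullin ubiquitin ligase, followed with 131.8, 169.8 and 240.8 at these times and a distance of 0.0513. Cdkn1a, which encodes the cell cycle inhibitor p21, had 721.7, 931.1 and 1306 and lay at a distance of 0.0625. All 3 had ratios at 2 h of 0.86 or 0.87, against 0.90 for Kdm3a. With 32 added to each signal, Rlf (0.71) and Dcaf10 (0.74) fell below the threshold at 2 h. Cdkn1a (0.83) and Kdm3a (0.85) stayed past it. Acsl3, for an enzyme that activates long-chain fatty acids, had 225.5, 287.8 and 440.1 on the 0, 1 and 2 h arrays and lay at a distance of 0.0668, although its other kept probe set gave a larger ratio at 2 h. Snrk, which encodes a kinase related to AMPK, had 278.9, 346 and 548.3 on the 0, 1 and 2 h arrays, at a distance of 0.074. Its ratio at 1 h lay between 0.18 and 0.41 over the alternatives described below. The likeness rests on 3 arrays and on the shared 0 h value, and describes the shape of the values only.

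**Figure D3:**
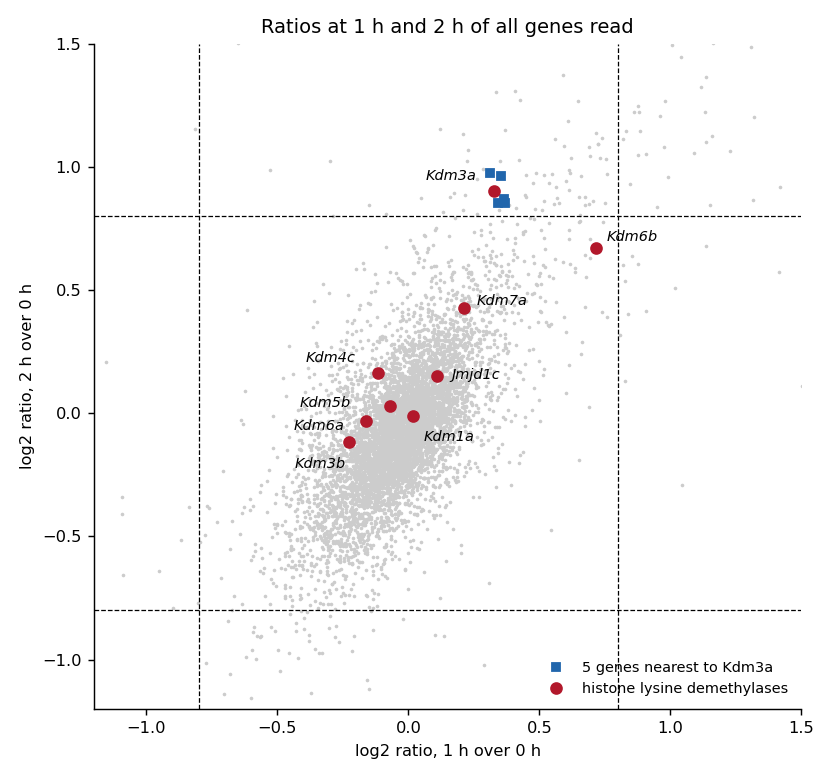
Log2 ratio at 1 h over 0 h (horizontal axis) against log2 ratio at 2 h over 0 h (vertical axis) for all genes read (grey), of which 96 lie outside the axes; red circles are the 9 demethylase genes, blue squares the 5 genes nearest to Kdm3a, and dashed lines the threshold of 0.8. Kdm3a lies at 0.33 and 0.90, Kdm6b at 0.72 and 0.67 and Kdm7a at 0.21 and 0.43, apart from the other 6 genes, whose ratios at 2 h were between -0.12 and 0.17.

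Promoter windows of 250 bases were searched for 8 of the 10 genes, 12 windows in all, and Kdm3b and Kdm6b are named only. The cyclic AMP response element TGACGTCA was in none of the 12 windows and in 1.55% of the 32851 windows of all genes. Its core TGACG, which also lies within TGACGTCA and was likewise sought on both strands, was in 17.8% of all windows and in 1 window each of Jmjd1c, Kdm4c, Kdm5b and Kdm6a, for Jmjd1c 79 bases and for Kdm6a 47 bases upstream of the start. None of the 3 windows of Kdm3a held it. The AP-1 site TGACTCA, in 4.46% of all windows, was in the window of the middle Kdm3a start, 175 bases upstream, and in that of Kdm5c, 71 bases upstream. Of the 12 windows, the hypoxia core (ACGTG or GCGTG) was in 1 each of Kdm3a, Jmjd1c, Kdm4c, Kdm5b, Kdm6a and Kdm7a, beside 38.6% of all windows. CCAAT was in 1 window each of Kdm3a, Kdm1a and Kdm5c, beside 33.8% of all windows. In Kdm5b TGACG and ACGTG overlap. A match describes the letters in the window and does not show that a factor binds there.

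A list of 21 further genes on the array held other histone demethylases and JmjC relatives, some with other substrates or no known activity. Of these, 12 were read, with 0 called at 1 h, at 2 h or between 2 h and 1 h, and the median log2 ratio was -0.02 at 2 h, beside 0.15 for the 9 genes above. Kdm5a, which like Kdm5b encodes a demethylase of H3K4, had 479.8 at 0 h, 484.1 at 1 h and 417.7 at 2 h. Its Y-linked relative Kdm5d, named after the values were seen, had 107.6, 126.3 and 137.8 on the 0, 1 and 2 h arrays, with log2 ratios of 0.23 and 0.36. Kdm2b, for a demethylase of H3K36 that recruits a Polycomb complex to CpG islands, had 364.5, 325.6 and 392.7 at 0, 1 and 2 h. Jarid2, for a catalytically inactive relative that belongs to PRC2, had 396.1, 420.5 and 546.0 at the same times. Ratios at 2 h were -0.20 for Kdm5a, 0.11 for Kdm2b and 0.46 for Jarid2. Tyw5, for a tRNA hydroxylase, had 260.0, 273.9 and 237.3. The highest ratio of the list at 2 h, named after the values were seen, was that of Jmjd6, which encodes a lysyl hydroxylase, with 162.1 at 0 h, 196.4 at 1 h and 271.8 at 2 h (0.75). Not read were 9 genes, among them Kdm4a, whose highest signal was 64.8, and Kdm4b, at 43.7, both close relatives of Kdm4c.

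The list of H3K9 methyltransferases and readers holds genes for proteins that write or bind methyl marks on H3K9 and for some of their cofactors. Of 17 on the array 12 were read and 0 were called. Their median log2 ratio was -0.10 at 1 h, with 4 of 12 above 0 beside 44.3% of all genes read, and -0.21 at 2 h, with 3 of 12 above 0 beside 38.5%, and nothing is read from these counts about the list. Ehmt1 encodes GLP, which writes mono- and dimethyl H3K9 together with the product of Ehmt2. Ehmt1 had 368.0 at 0 h, 340.3 at 1 h and 286.6 at 2 h, with a ratio of -0.36 at 2 h. Ehmt2, named after the values were seen, had 246.7, 202.4 and 186.1 at 0, 1 and 2 h, a ratio of -0.41 at 2 h. Both were below 0 at 2 h by more than the median of all genes read, -0.07, without reaching the threshold. Cbx5, which encodes the heterochromatin protein HP1α, had 464.3, 405.9 and 328.1 (-0.50 at 2 h), and Trim28, a corepressor that recruits H3K9 methyltransferase, had 613.7, 577.5 and 528.3 (-0.22). Cbx1, for another heterochromatin protein, had 770.8, 655.2 and 768.5, with nearly the same signal at 2 h as at 0 h. The genes named in this paragraph were all below 0 at 2 h and do not stand for the list. Among its other genes the ratios reached 0.50 at 1 h and 0.47 at 2 h.

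The lists of writers of the other marks and of partners of the demethylases also had 0 genes called at any time, which at the shares of all genes called (2.73% higher and 0.812% lower at 2 h) says little of lists this small. The list of H3K4 methyltransferases had 16 of 17 genes read and a median ratio of -0.16 at 2 h, that of PRC2 had 9 of 11 and 0.06, and that of H3K36, H3K79 and H4K20 methyltransferases had 8 of 9 and -0.05. Among the CoREST partners of LSD1, 5 of 12 were read, with a median of 0.02 at 2 h. Hdac2, a deacetylase of the complex, had 899.2, 921.6 and 941.4 at 0, 1 and 2 h (0.07 at 2 h). Hdac1 had 361.8, 339.7 and 368.1 (0.02). Rcor3, one of the scaffold proteins of the complex, had 336.7, 270.1 and 244.6 (-0.46), whereas Rcor1 had 225.3, 235.4 and 242.4 (0.11).

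The genes for the proteins that the study examined as partners of JMJD1A were all read, and 0 of 4 were called. Pparg, the master regulator of adipocyte differentiation, had 1232.6 at 0 h, 1624.7 at 1 h and 1953.6 at 2 h, with log2 ratios of 0.40 and 0.66. Smarcd2, which encodes the SWI/SNF subunit BAF60b, had 538.6 at 0 h, 430.3 at 1 h and 381.2 at 2 h, with ratios of -0.32 and -0.50. The values of Pparg were highest and those of Smarcd2 lowest on the 2 h array. Smarca4, for the ATPase BRG1, had 374.9, 350.2 and 341.2 at 0, 1 and 2 h, and Arid1a, for the DNA-binding subunit, had 308.5, 304.5 and 274.7, with ratios at 2 h of -0.14 and -0.17.

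Other enzymes that use 2-oxoglutarate and oxygen, as JMJD1A does, included 1 called gene among 12, beside 2.73% of all genes called higher at 2 h and 0.667% at 2 h over 1 h, which is no result about the list. Of 16 on the array 12 were read, and Egln3, which encodes the oxygen-sensing prolyl hydroxylase PHD3, was higher at 2 h, with 217.2 at 0 h, 291.5 at 1 h and 524.8 at 2 h. On the log2 scale it had 0.42 at 1 h, 1.27 at 2 h and 0.85 at 2 h over 1 h, past the threshold in the last of these by a small margin. Most of its increase thus lay in the second hour, as for Kdm3a. P4ha1, for the collagen prolyl hydroxylase, had 363.7, 444.3 and 558.3 at 0, 1 and 2 h (0.62 at 2 h), and Alkbh5, for an RNA demethylase, had 600.4, 675.7 and 771.3 (0.36). Egln1, for the related hydroxylase PHD2, had 615.5, 606.7 and 679.4 (0.14). Plod2, also of this list, had 639.4, 648.7 and 620.1 at 0, 1 and 2 h, with a ratio below 0 at 2 h (-0.04). Of 13 genes for the supply of 2-oxoglutarate and iron 12 were read, 0 were called, and the median ratio at 2 h was -0.09.

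**Figure D4:**
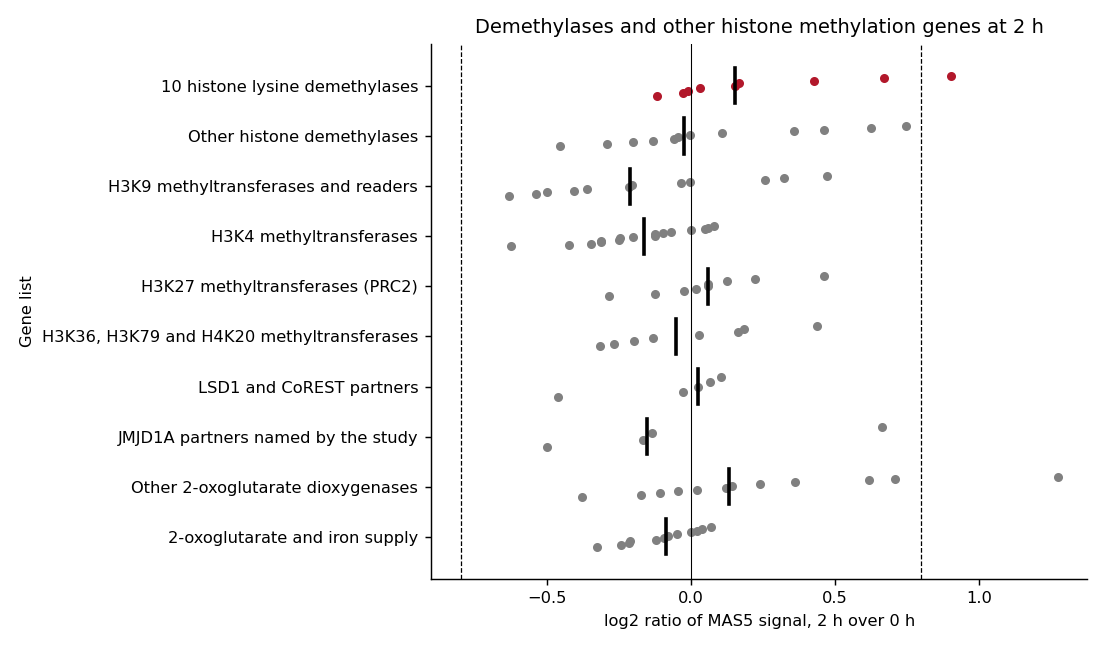
Log2 ratio of MAS5 signal at 2 h over 0 h (horizontal axis) of each gene read (points) in the demethylases and 9 lists of other chromatin and dioxygenase genes (rows, cell type markers not shown), with the median of the list as a vertical bar and the threshold of 0.8 as dashed lines. The 9 demethylase genes read (red) have a median of 0.15 and H3K9 methyltransferases and readers one of -0.21; Kdm3a (0.90) and Egln3 (1.27) are the only points shown past the threshold.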

How the data were processed

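RNA of differentiated iBATs was measured at 0, 1 and 2 h of ISO, 1 array per time point. Labelled RNA was hybridized by the authors to Affymetrix mouse arrays, and the deposited values are 1 linear intensity for each probe set, computed with MAS5 according to the submitters' notes. The mean of each array after 2% was trimmed from each end was 100.0. The median signal was 13.6, 12.7 and 13.4 at 0, 1 and 2 h, and the number of arrays limits the precision. The filter on absent calls in the methods is not applied in the deposited table, and no further scaling was done. MAS5 subtracts background and scales all arrays to one mean, so dim probe sets vary widely and a change in total RNA per cell is not seen.

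Symbols came from the platform annotation (34958 probe sets with 1 symbol, 932 with several, 9211 unnamed here), and all 34 probe sets of the demethylase genes were matched by gene identifier to RefSeq with the same symbol. A probe set was kept where it reached 100 on any array, and the brightest one by mean signal over the 3 arrays stood for its gene. Signals of 0 were given 0.1 before log2. The spread was 1.4826 times the median absolute deviation, taken over genes in 20 classes of mean signal. All 10 genes are named with every probe set. From each other list the rule names genes past the threshold and up to 4 others of highest mean signal, and from the genes like Kdm3a the 5 nearest. The genes and lists were chosen with earlier results of these data known. Promoter windows were 250 bases from RefSeq (GRCm38.p6). Python 3.11.15, numpy 2.4.6, pandas 2.3.3 and limma 3.58.1 in R 4.3.3 (cyclic loess) were used. The 12 alternatives changed the filter, floor, added constant, scaling, choice of probe set or threshold.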

Additional observations from a re-analysis of the deposited data

Results flagged for a closer look

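In 3 of the 9 genes read the log2 ratio to 0 h had opposite signs at 1 h and at 2 h, which drew a second look. The difference between the ratio at 2 h and that at 1 h was -0.027 for Kdm1a, 0.28 for Kdm4c and 0.10 for Kdm5b. Each was smaller than the spread among genes of like signal, which was 0.18, 0.32 and 0.22. With 1 array per time point the differences were not tested.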

How the results depend on the processing

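The 2-fold threshold gives no new ratio, so ratios were compared under 11 of the 12 alternatives. Of 285 values of the demethylase genes, 283 stayed within the spread among genes of like signal and none changed the sign of a call. Many of the 283 could not differ, since a filter or floor leaves the ratio of a bright probe set as it was. Kdm3a at 2 h over 0 h lay between 0.85 and 0.93 on the log2 scale over these 11 alternatives, past the threshold in each. Most of them could not change it, because Kdm3a has a single probe set that is bright on all 3 arrays. Only the added constant (0.85) and the scalings (such as 0.92 with the same median and 0.89 with quantile normalization) could move its ratio. With a 2-fold threshold 0 of the demethylase genes were called higher at 2 h, since Kdm3a was at 1.87-fold. With arrays scaled to the same median 1 demethylase gene was called higher at 1 h, Kdm6b at 0.81. That scaling puts the median of all genes at 0.08 there, against -0.02. The values outside the spread were Kdm6b at 1 h, 0.56 as the median of its kept probe sets, and Kdm7a at 2 h over 1 h, 0.44 from its second kept probe set. Near 0 the sign differed in 2 alternatives for Kdm1a at 2 h and in 2 for Kdm6a at 2 h, and in 1 for Kdm5b at 1 h and for Jmjd1c at 2 h over 1 h. Egln3 at 2 h over 1 h was no longer called with 32 added to each signal, with the same median or with the 2-fold threshold. Jmjd6 reached 0.82 at 2 h with cyclic loess.

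Counts over all genes moved more. At 2 h over 0 h 188 genes were called higher and 56 lower, against 109 and 12 with a signal of 100 on all 3 arrays, 131 and 17 with the 2-fold threshold, and 2410 and 2164 of 18194 genes with no filter. At 1 h over 0 h it was 109 and 15, against 56 and 5, 80 and 8, and 2181 and 2188. Dim probe sets limit the reading of Kdm5c and Kdm4c. No paired analysis was possible because each time point is 1 array.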
